A study of Mus musculus with 8 samples.

Results

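Accessible chromatin was described around 9 genes of prostaglandin synthesis, transport, breakdown and reception in mouse ovarian granulosa cells: Pla2g4a, Ptgs1, Ptgs2, Ptges, Slco2a1, Hpgd, Ptger2, Ptger4 and Ptgfr. A region was assigned to a gene where it overlapped the gene body in the GRCm38 annotation or the 50 kb on either side. Of 98245 merged accessible regions in 8 peak lists, 116 were assigned in this way. Pla2g4a had the most regions (23), followed by Slco2a1 (21), Ptges (18), Ptgs1 and Hpgd (11 each), Ptgs2 and Ptgfr (9 each), Ptger4 (8) and Ptger2 (6). The windows differed in length, from 108 kb (Ptgs2) to 232 kb (Pla2g4a). Per 100 kb, Ptges had the most regions (12.7), followed by Slco2a1 (11.1) and Pla2g4a (9.93), and Ptger2 the fewest (5.19).

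Chromatin was profiled by ATAC-seq, in which a transposase cuts open DNA and adds sequencing adapters. All mice were 21 days old and received 5 IU of equine chorionic gonadotropin (eCG, also called PMSG), which drives follicle growth. The LH experiment used F1 females of CBA x C57BL/6 and compared 2 PMSG libraries, from mice killed 46 h after eCG, with 2 hCG libraries, from mice that at 46 h received 5 IU of human chorionic gonadotropin (hCG), an LH receptor agonist, and were killed 6 h later. The PR experiment used the strain C.129S7(B6)-Pgrtm1Bwo/OmcJ, which carries a targeted allele of Pgr, the progesterone receptor gene, and compared 2 wild-type (WT) with 2 knockout (KO) libraries, all from mice given eCG and then hCG. Each library pooled granulosa cells of 2 to 3 mice, and each group held 2 biological replicates. In the LH experiment the time tags ran opposite to the titles and source names (0 h for hCG and 6 h for PMSG), and the titles were followed. In the PR experiment all 4 libraries carried a 6 h tag but a pre-ovulatory source name. Strain, experiment and the naming of the peaks (only PR peak names mention filtering and marked duplicates) changed together, so that their contributions cannot be told apart. In these bulk samples a smaller share of cells with open chromatin and a lower openness in each cell cannot be told apart.

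Prostaglandins are lipid signals made on demand from membrane fatty acids. Cytosolic phospholipase A2 (Pla2g4a) releases arachidonic acid, the cyclooxygenases (constitutive Ptgs1 and inducible Ptgs2) convert it to prostaglandin H2, and terminal synthases such as Ptges make the individual prostaglandins. Slco2a1 carries prostaglandins into cells, where Hpgd, 15-hydroxyprostaglandin dehydrogenase, inactivates them. Ptger2 and Ptger4 encode the EP2 and EP4 receptors for prostaglandin E2, and Ptgfr encodes the receptor for prostaglandin F2 alpha. In the ovary the LH surge induces Ptgs2 in granulosa cells, and prostaglandin E2 acting through EP2 on the cumulus is needed for normal cumulus expansion and ovulation.

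The promoter windows of both cyclooxygenase genes and both prostaglandin E2 receptor genes are shown because their cover by intervals differed: the window of Ptgs2 and Ptger4 was covered in full in each of the 8 lists, that of Ptgs1 in full in some lists and in part in others, and that of Ptger2 in no list. Each runs from 250 bases before the start to 50 bases after it, is taken from RefSeq on GRCm38.p6, and is written 5′ to 3′ on the gene's strand. Capitals mark the matches to the motifs searched. The window of Ptgs2 lies at chr1:150099781-150100080 (plus strand), that of Ptgs1 at chr2:36230176-36230475 (plus strand), that of Ptger2 at chr14:44987861-44988160 (plus strand) and that of Ptger4 at chr15:5244138-5244437 (minus strand).
Ptgs2: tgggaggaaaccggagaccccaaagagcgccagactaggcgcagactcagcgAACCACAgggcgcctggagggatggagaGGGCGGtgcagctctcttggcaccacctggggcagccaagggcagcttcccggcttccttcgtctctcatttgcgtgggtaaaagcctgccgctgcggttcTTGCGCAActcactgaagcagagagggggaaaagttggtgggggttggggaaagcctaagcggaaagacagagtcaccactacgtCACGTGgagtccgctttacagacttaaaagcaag
Ptgs1: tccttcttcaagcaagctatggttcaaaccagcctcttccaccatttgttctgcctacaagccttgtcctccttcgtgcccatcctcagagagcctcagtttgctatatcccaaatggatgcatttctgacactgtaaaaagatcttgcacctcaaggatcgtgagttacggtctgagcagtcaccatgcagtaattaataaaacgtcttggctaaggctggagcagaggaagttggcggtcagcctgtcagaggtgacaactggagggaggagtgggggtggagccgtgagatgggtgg
Ptger2: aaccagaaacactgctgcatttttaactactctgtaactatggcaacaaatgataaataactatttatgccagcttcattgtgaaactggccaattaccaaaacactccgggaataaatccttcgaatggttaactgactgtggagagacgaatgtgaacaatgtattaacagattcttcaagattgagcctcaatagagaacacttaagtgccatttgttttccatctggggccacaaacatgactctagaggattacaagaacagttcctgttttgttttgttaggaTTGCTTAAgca
Ptger4: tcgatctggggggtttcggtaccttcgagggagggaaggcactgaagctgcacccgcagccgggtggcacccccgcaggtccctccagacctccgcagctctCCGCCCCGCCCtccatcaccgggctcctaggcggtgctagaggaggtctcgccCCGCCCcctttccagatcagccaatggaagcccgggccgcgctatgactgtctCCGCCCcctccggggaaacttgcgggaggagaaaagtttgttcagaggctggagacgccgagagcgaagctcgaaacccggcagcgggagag

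The inducible Ptgs2 window held 4 matches. Positions are counted from the start base as 0. The palindrome TTGCGCAA, a C/EBP motif, lay at -69 to -62 and was found in 0.183% of the 32851 promoters in the table. The E-box CACGTG lay at 16 to 21 downstream of the start (7.15% of promoters hold it), AACCACA, the other-strand form of the RUNX motif TGTGGTT, at -198 to -192 (5.27%), and GGGCGG, an Sp1 motif, at -170 to -165 (35.7%). The Ptger4 window held 4 copies of GGGCGG on the other strand, 2 of which share a base, and its GC content was 67.0% with 25 CpG, against a median of 52.7% and 7 CpG over all promoters in the table. The Ptger2 window was poor in both, at 37.7% GC and 3 CpG, and held TTGCTTAA at 39 to 46, a match to the looser C/EBP motif TTGCNNAA (10.8%; the palindrome in Ptgs2 also matches it). The Ptgs1 window, at 50.7% GC, matched none of the motifs. Both strands were searched, also for TGACGTCA (CRE, 1.79%), TGANTCA (AP-1, 7.81%), CAGCTG (E-box, 16.3%), CAAGGTCA (NR5A, 1.56%), the GATA-factor motif AGATAA (11.2%) and the progesterone and glucocorticoid receptor element (0.475%). Of these, CAGCTG alone was found in a window of the 9 genes, that of Hpgd, which says only that the other letters are not in these windows.

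The lists held 62327 to 65567 intervals for hCG, 57992 to 58780 for PMSG, 80137 to 84313 for WT and 55654 to 58851 for KO. They carry no read counts, so the depth is unknown. Because a longer list reaches weaker intervals, the group-only counts of each experiment are given for the deposited lists and for equal-length lists. Equal-length lists hold the best 55654 intervals of each library by q-value. Unless stated otherwise, ranks are from equal-length lists. Widths, presence by library and the overlap of calls between experiments are from the deposited lists alone. At the start of Pgr, each KO library had 2 separate intervals where each of the other 6 libraries had 1. Of 8 granulosa markers, 6 (7 in WT replicate 1) had an interval within 1 kb of a gene end, with Cyp19a1 at 0 in all lists and Nr5a2 present in WT replicate 1 alone. The same count was 1 to 2 of 3 for theca (Insl3 at 0), 2 of 4 for endothelium, 0 to 1 of 4 for immune cells (Cd68 in both hCG libraries, with Ptprc, Adgre1 and Csf1r at 0), 1 to 2 of 3 for stroma and 1 to 2 of 4 for oocyte. Open chromatin at a marker is not its expression, and the part of other cells in the results below was not tested.

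Intervals covered most of the start sites in each condition. At 7 of the 9 genes the start lay inside an interval of all 8 lists, against 54.8% of 17274 protein-coding genes. Ptges was covered in 7 lists, the interval of hCG replicate 2 ending short of the start. At Ptger2 the nearest region, chr14:44988442-44989694, began 331 bp inside the gene and was held by all 8 libraries. For Ptgs1, Ptges and Slco2a1 the start used lies inside the annotated gene span, and Pla2g4a has a second start in the table that no list covered.

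Strength is given as the rank percentile of the deposited fold enrichment within the equal-length list (100 is the strongest interval). At the start of Ptgs2 (chr1:150099482-150100352) the ranks were 80.1 and 65.9 in the hCG libraries, 86.6 and 76.1 in PMSG, 68.2 and 63.4 in WT, and 54.2 and 73.4 in KO. The start of this inducible gene thus ranked high before hCG, and in these equal-length ranks neither comparison separated the groups. With all deposited intervals ranked, WT (77.9 and 75.9) lay above KO (56.6 and 73.4), the WT lists being longer. The covered width was 854 and 843 bp in hCG against 626 and 738 bp in PMSG, a ratio of 1.24. The deposited folds there were 12.7 and 11.0 for hCG and 15.5 and 13.7 for PMSG, and 11.9 and 12.2 for WT and 9.16 and 10.8 for KO. These folds did not overlap between the groups of either experiment, but the depth of the libraries is unknown. At the start of Hpgd the ranks were 75.9 and 73.0 in hCG and 75.8 and 72.1 in PMSG, again overlapping. Over the 8 libraries the start of Ptgs1 ranked between 50.1 and 68.8, that of Ptger4 between 58.3 and 80.3, and the region inside Ptger2 between 44.2 and 54.0. Lower ranks were found at Slco2a1 (15.4 to 32.8) and Ptges (7.42 to 22.4), and wide ranges at Pla2g4a (29.2 to 61.3) and Ptgfr (38.3 to 68.0).

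**Figure D1:**
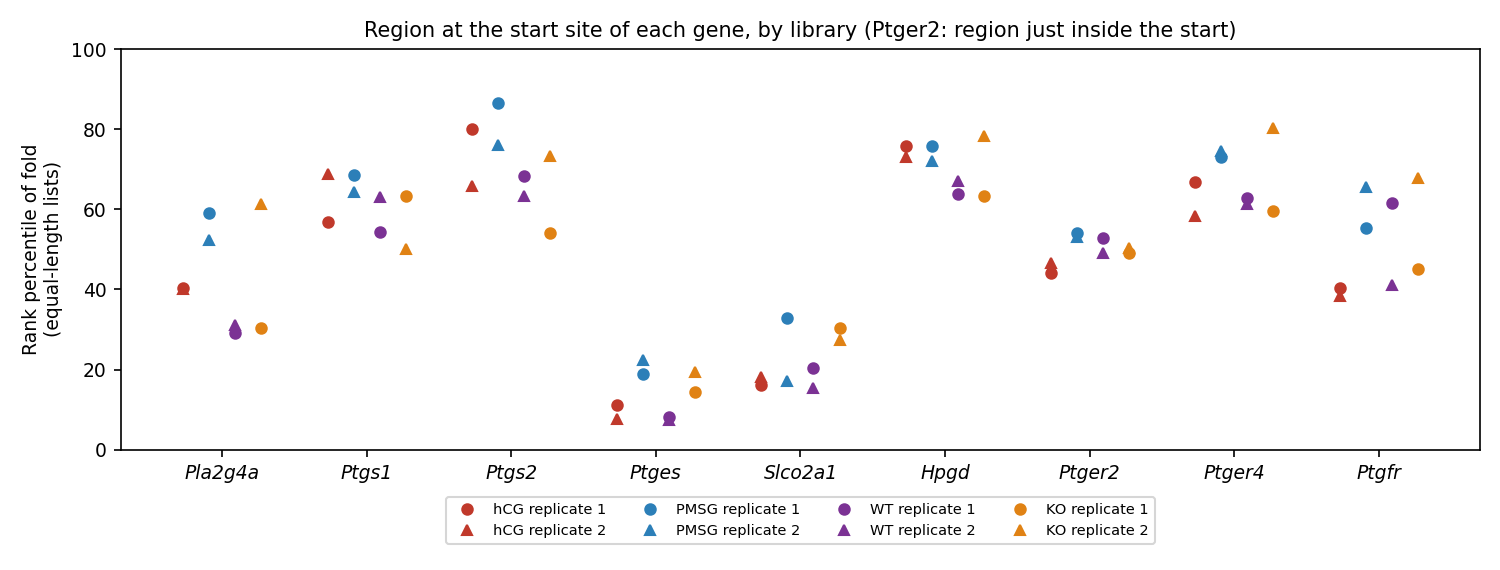
Rank percentile of fold (y axis, 0 to 100, equal-length lists) of the region at the start of each gene (x axis), 1 point per library and coloured by group; for Ptger2 the region just inside the start is shown. Each region is present in all 8 libraries, and those of Ptges and Slco2a1 sit lowest.

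Of the 8 regions over a start, 4 ranked higher in both PMSG libraries than in both hCG libraries (Pla2g4a, Ptges, Ptger4 and Ptgfr) and none ranked higher in hCG. Over all 9804 regions at a protein-coding start these shares were 61.4% and 11.9%, so this lean of the starts was not particular to the prostaglandin genes. At Ptgfr the difference was -21.1 points (40.5 and 38.3 in hCG, 55.4 and 65.7 in PMSG). Width leaned the other way. Apart from Ptges, each of these starts was wider in both hCG libraries than in both PMSG libraries, by ratios of 1.05 (Slco2a1) to 1.45 (Hpgd). Median interval widths of the whole lists were also larger in hCG (488 and 502 bp) than in PMSG (422 and 412 bp). The width share over all starts is not given here. In the PR experiment 2 of the 8 starts (Ptges and Slco2a1) ranked higher in both KO libraries, against 23.2% over all starts, and none ranked higher in WT, against 4.59%. With all deposited intervals ranked the direction turned, the WT lists being longer. Ptges ranked 24.2 and 26.2 in WT against 18.9 and 19.5 in KO, and Slco2a1 44.6 and 41.7 against 34.2 and 27.5. Ptgs2 and Ptgs1 were then also higher in WT, and none was higher in KO. The share over all starts is not given for these ranks.

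The LH experiment asked which chromatin changed in granulosa cells between the PMSG and hCG states. Around the 9 genes all of the group-only regions lay away from the starts, and how often starts of other genes are group-only is not given here. Of 95 regions present in this experiment, 24 (25.3%) were hCG-only, that is, held by each hCG library and by no PMSG library, and 13 (13.7%) were PMSG-only. Over all 80889 regions the shares were 17.6% and 10.3%, and over those within 50 kb of any protein-coding gene 17.1% and 9.15%. In equal-length lists the counts were 19 of 86 (22.1%, against 15.7% over all regions) and 13 of 86 (15.1%, against 13.5%). With 2 libraries against 2 there are 3 splits, and no exact two-sided p can be below 0.333, so that no test is given and the counts stand as a description. In the deposited lists the genes differed in direction: Slco2a1 and Ptgs1 had 8 and 4 hCG-only regions and no PMSG-only region, whereas Ptger2 and Ptger4 had 3 and 1 PMSG-only regions and no hCG-only region. The regions present in this experiment numbered 15 at Slco2a1, 9 at Ptgs1, 5 at Ptger2 and 7 at Ptger4. Ptges had 4 hCG-only and 3 PMSG-only regions, Pla2g4a 5 and 4, Ptgfr and Hpgd 1 of each, and Ptgs2 1 and 0. In equal-length lists Slco2a1 (6 and 0), Ptgs1 (4 and 0) and Ptger2 (0 and 2) leaned the same way, but Ptger4 turned to 1 hCG-only and no PMSG-only region, Ptges to 2 and 3, and Pla2g4a to 4 and 5, and Hpgd had 0 and 2.

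**Figure D2:**
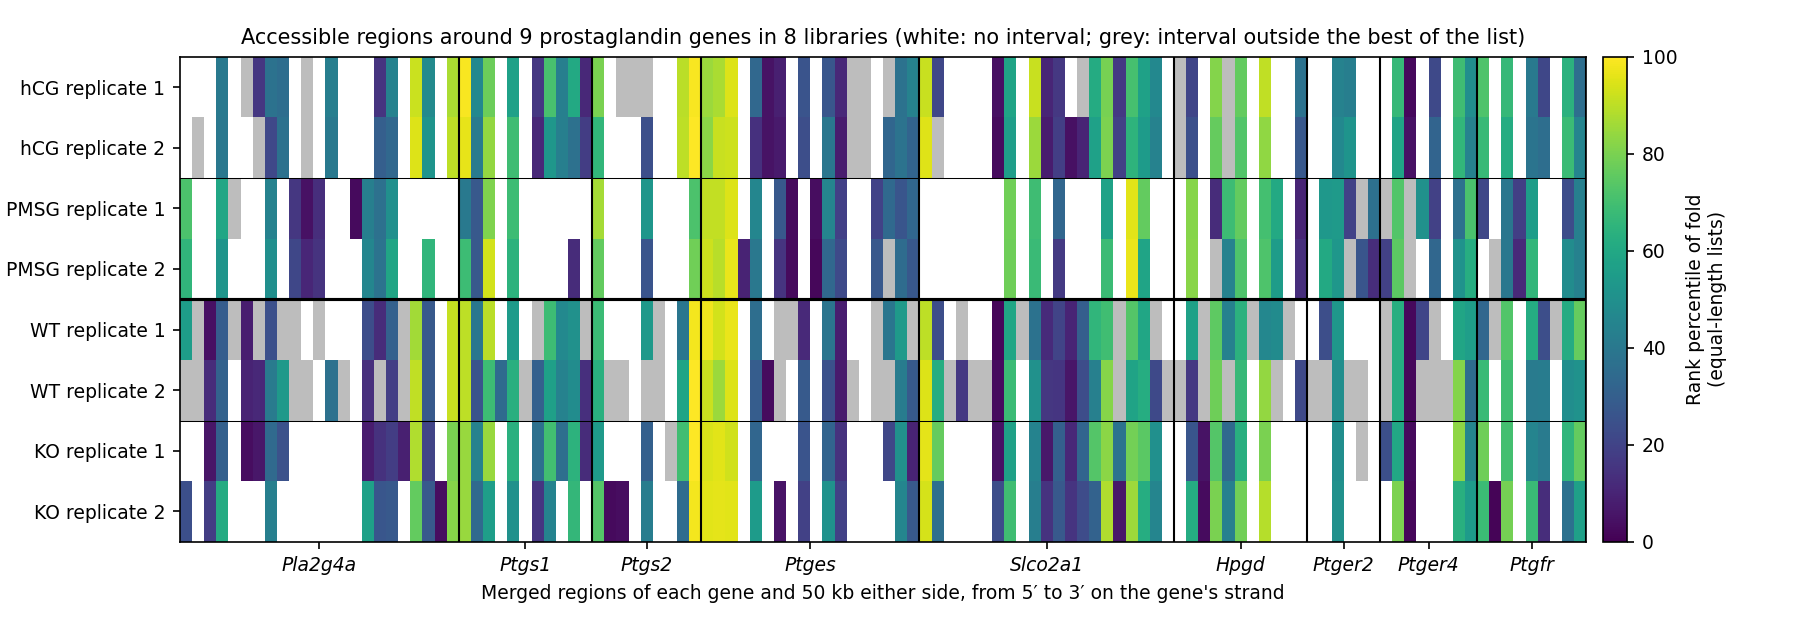
Each column is 1 of the 116 regions, grouped by gene and ordered 5′ to 3′; each line is 1 library; colour gives the rank percentile of fold in equal-length lists, white no interval and grey an interval outside the best 55654. The block of Slco2a1 shows the 8 regions that are coloured or grey in both hCG libraries and white in both PMSG libraries.

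**Figure D3:**
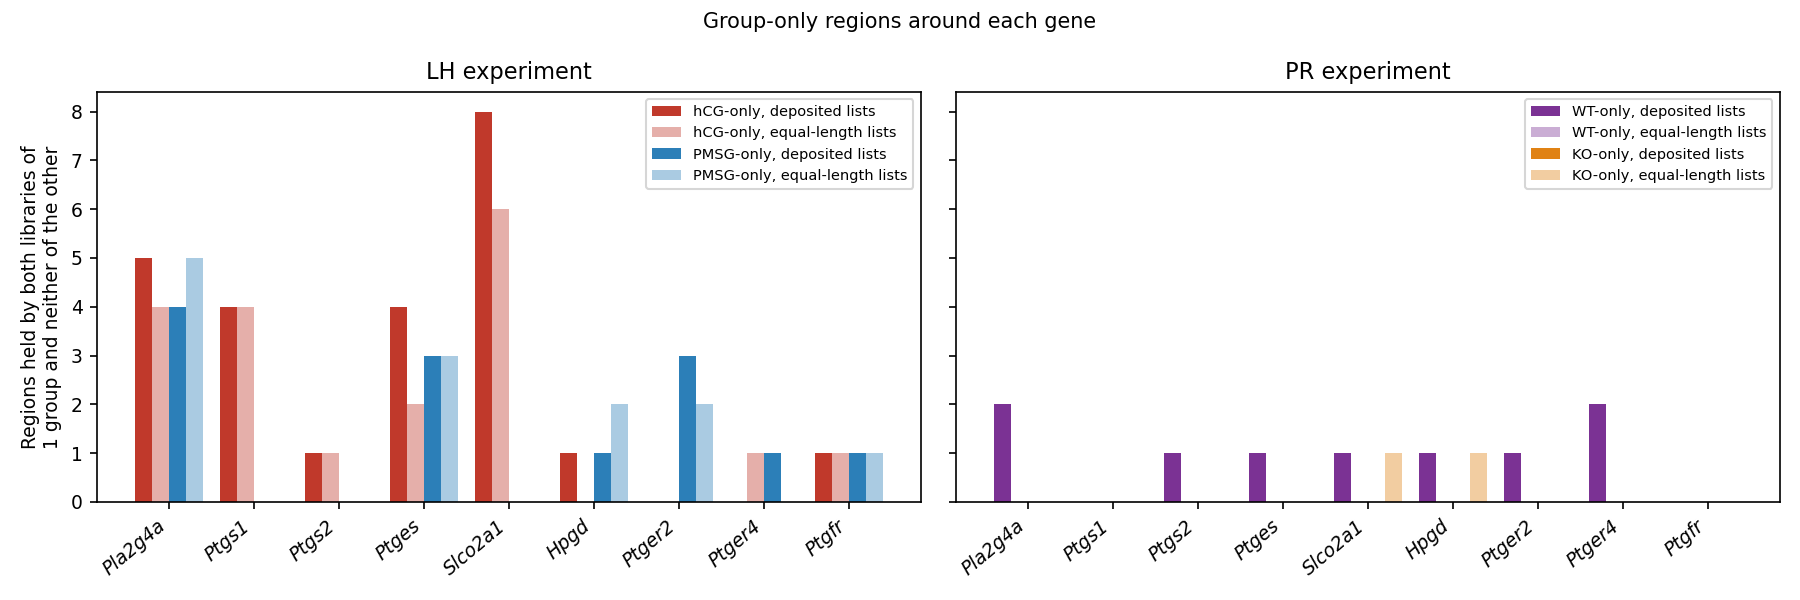
Number of regions (y axis) around each gene (x axis) held by both libraries of a group and neither library of the other, with the LH and PR experiments in separate panels; full colours are the deposited lists and pale colours the equal-length lists. In the deposited lists Slco2a1 has the most hCG-only regions (8) and none of the 9 genes has a KO-only region.

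Around Ptgs2, the gene of the LH-inducible cyclooxygenase, the contrast lay downstream of the gene. Within 50 kb upstream of its start no list had an interval apart from the start region. The region chr1:150145068-150145453, 45.0 kb downstream of the start, was held at ranks 89.7 and 89.9 in the hCG libraries and was missing from both PMSG lists. All 4 PR libraries, which also received hCG, held it, at ranks 39.4 and 58.4 in WT and 69.2 and 34.9 in KO. It was therefore present in 6 of 6 libraries from hCG-treated mice and 0 of 2 from mice without hCG, with its highest ranks in the LH experiment. The KO replicate 2 interval was the narrowest, at 164 bp against 314 to 345 bp in the other 5 libraries.

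The region around Ptgs2 with the highest mean rank over the libraries lay a little further out, at chr1:150151063-150151873, and was held by all 8 libraries. Its ranks were 99.0 and 99.7 in hCG, 71.5 and 78.4 in PMSG, 98.2 and 99.8 in WT, and 99.6 and 98.4 in KO. Both PMSG libraries were thus below all 6 others, and its intervals were 1.66 times wider on average in hCG than in PMSG. Between the gene's end and these regions, chr1:150118156-150118715 went the other way in width, with an hCG to PMSG ratio of 0.643.

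**Figure D4:**
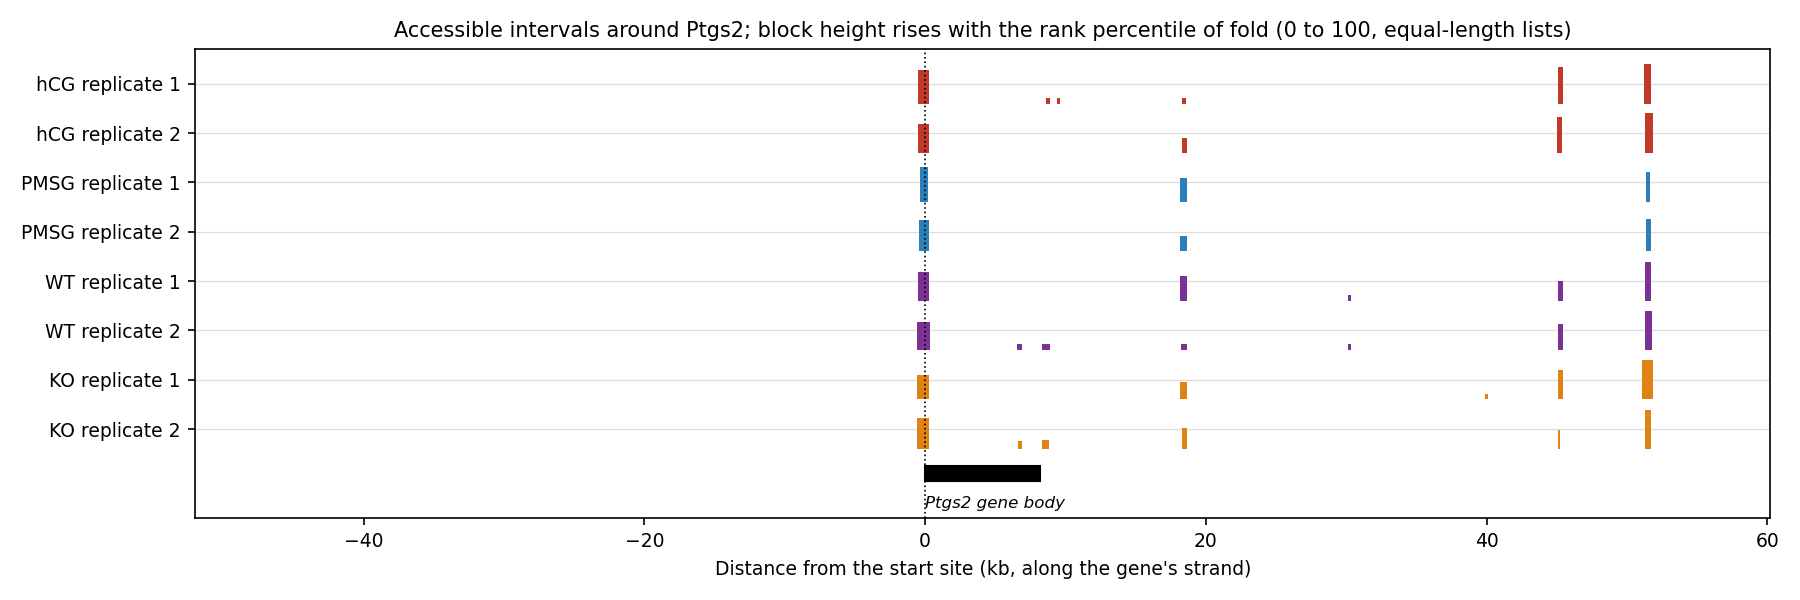
Intervals of the 8 libraries around Ptgs2 by distance from the start (x axis, kb); block height rises with the rank percentile of fold (the lowest blocks lie outside the best 55654) and the black bar is the gene body. The interval 45.0 kb downstream is missing from both PMSG lines, and no interval lies upstream of the start region.

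Ptgs1, the constitutive cyclooxygenase gene, had 4 hCG-only regions, all on its 3′ side. The region chr2:36259226-36260121, 28.8 kb from the start and just past the gene's end, ranked 70.8 and 53.0 in hCG, 68.6 and 56.3 in WT, and 69.6 and 44.6 in KO, and was in neither PMSG list. A weaker one inside the gene, chr2:36254239-36254697, ranked 16.0 and 11.1 in hCG and was likewise held by all 4 PR libraries and neither PMSG library. The other two, at chr2:36270215-36271085 (ranks 42.7 and 42.8 in hCG) and chr2:36281205-36281446 (11.3 and 17.8), were in both WT libraries and KO replicate 1 but not in KO replicate 2. Upstream, inside the neighbouring gene Mrrf, chr2:36189168-36189841 was held by all 8 libraries. It ranked 99.1 and 96.3 in hCG against 40.2 and 68.7 in PMSG, a difference of 43.3 points, and between 84.4 and 90.2 in the PR libraries. The region chr2:36202039-36203820 was 2.18 times wider in hCG (1782 and 1525 bp) than in PMSG (662 and 858 bp).

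At Pla2g4a, whose product supplies the substrate, group-specific regions of both kinds lay along the long gene body. The strongest hCG-only region was chr1:149846647-149847152, deep in the gene, with ranks of 91.9 and 94.8 in hCG, 86.3 and 90.3 in WT, and 88.2 and 75.9 in KO. The second, chr1:149813529-149814337, lay past the 3′ end and ranked 87.5 and 90.2 in hCG, 91.1 and 91.7 in WT, and 79.9 and 81.7 in KO. Both were high in 6 of 6 libraries from hCG-treated mice and missing from both PMSG lists. The 3 other hCG-only regions were at chr1:149876611-149876901, chr1:149937918-149938117 and chr1:149946971-149947284, all in the gene body, and none was in KO replicate 2. Among the PR lists the first was in WT replicate 2 alone, and the others were in both WT lists and KO replicate 1. In the other direction, chr1:149977878-149978198, 16.6 kb upstream of the start, ranked 71.5 and 65.5 in PMSG and was in neither hCG list. In the PR experiment it was in both WT lists and KO replicate 2, at ranks 55.1 in WT replicate 1 and 23.8 in KO replicate 2 and outside the best 55654 in WT replicate 2. The PMSG-only regions in the body, chr1:149868917-149869413, chr1:149910912-149911646 and chr1:149920032-149920474, ranked between 13.2 and 45.8 in PMSG. The first was held by all 4 PR libraries, at ranks from 7.69 (KO replicate 1) to 56.8 (KO replicate 2). The second was in WT replicate 1 alone among the PR lists, and the third in both WT lists and neither KO list.

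Ptges, the prostaglandin E synthase gene, carried weak group-specific intervals inside its gene span. Of the 4 hCG-only regions, chr2:30917626-30918554 ranked highest, at 26.0 and 23.5 in hCG, and was held by all 4 PR libraries (ranks 11.4 to 28.0). The 3 others had folds of 2.72 to 4.41 in hCG, and chr2:30897226-30897537 was in no PR library. The PMSG-only region chr2:30891112-30891440 ranked 19.6 and 27.0 in PMSG, and chr2:30914802-30915373 and chr2:30918803-30919341 ranked between 1.89 and 3.43. The region with the highest mean rank in the window, chr2:30942405-30943103, ranked between 92.2 and 96.7 in all 8 libraries, and its nearest coding start is that of Tor1a.

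Slco2a1, which encodes the prostaglandin transporter, had the largest number of hCG-only regions among the 9 genes, and all 8 of them were also held by all 4 PR libraries. The strongest, chr9:102958707-102959246, lay 49.2 kb upstream and ranked 91.4 and 95.3 in hCG, 89.9 and 94.7 in WT, and 95.9 and 93.4 in KO. In the gene body, chr9:103061625-103062124 ranked 61.2 and 56.9 in hCG, 65.4 and 43.3 in WT, and 73.3 and 31.1 in KO. Neither was in a PMSG list, and the WT and KO ranks overlapped at each. Of the remaining 6, chr9:103134293-103134933 lies inside the neighbouring gene Rab6b (ranks 46.8 and 44.4 in hCG). The other 5 ranked between 2.77 and 21.4 in hCG or fell outside the best 55654 in 1 hCG library: chr9:102967064-102967675, chr9:102983615-102984032 and chr9:103006351-103006666 upstream, and chr9:103054990-103055596 and chr9:103078129-103078719 in the body. Regions held by all 8 libraries differed in both directions. Near the gene's 3′ end, chr9:103092036-103092774 ranked 95.4 and 96.8 in PMSG against 70.3 and 64.8 in hCG, with 73.2 and 57.9 in WT and 78.8 and 85.2 in KO. Upstream, chr9:102984887-102985821 ranked 78.4 and 78.1 in PMSG against 58.3 and 55.6 in hCG, a difference of -21.3 points. Downstream, chr9:103111325-103112601, which lies over the start of the neighbouring gene Rab6b, ranked 76.0 and 58.6 against 57.1 and 54.6. Higher in hCG were chr9:102993588-102994373 upstream (91.7 and 84.8 against 68.8 and 67.8) and chr9:103072507-103073497 in the body (79.3 and 80.4 against 57.5 and 68.1), and of these 5 the first 2 alone reached a difference of 20 points.

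**Figure D5:**
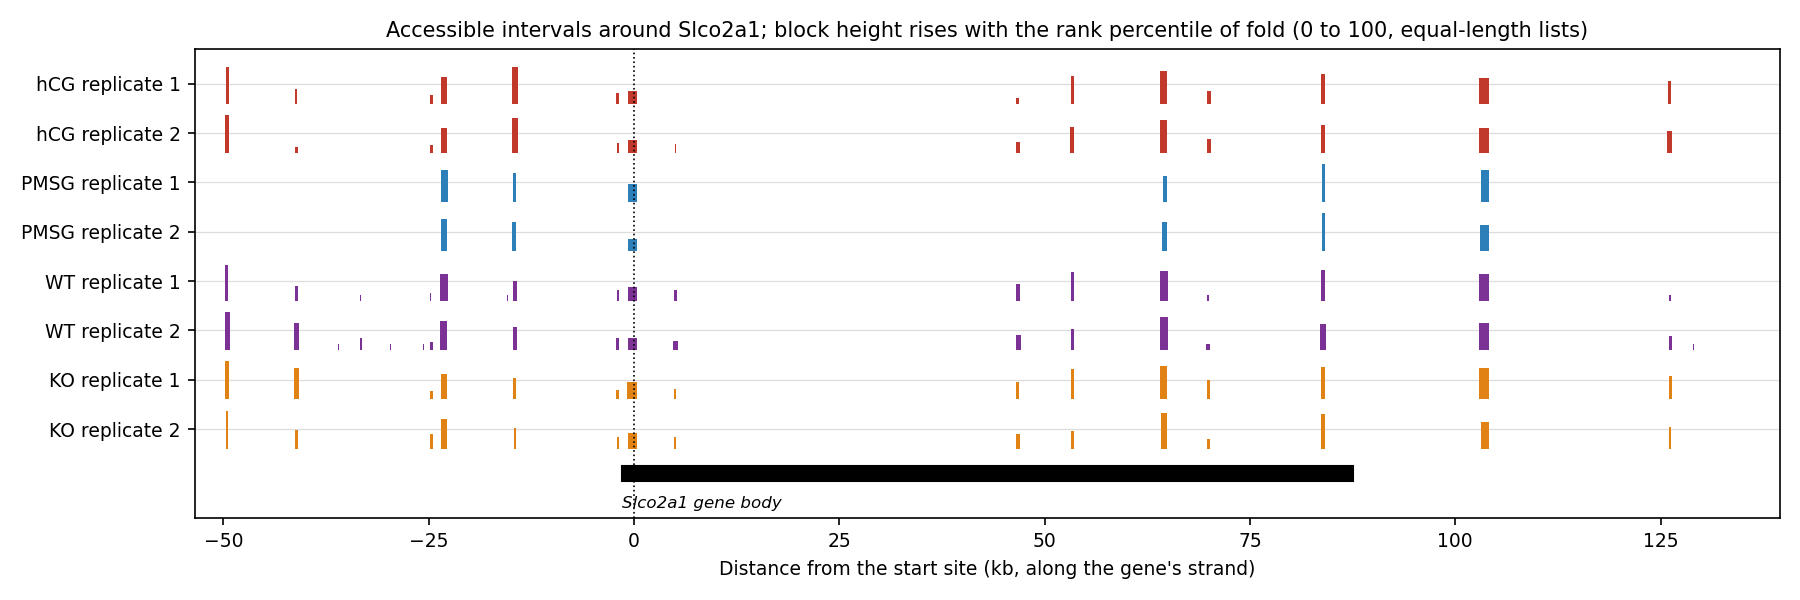
Intervals of the 8 libraries around Slco2a1 by distance from the start (x axis, kb); block height rises with the rank percentile of fold (the lowest blocks lie outside the best 55654) and the black bar is the gene body. Both PMSG lines hold 6 regions, against 14 and 15 in hCG, 17 and 20 in WT and 15 in each KO library.

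Around Hpgd, which encodes the enzyme that inactivates prostaglandins, the largest rank difference of the set was found. The region chr8:56266396-56267393, 27.2 kb upstream of the start, was held by all 8 libraries and ranked 81.7 and 82.4 in PMSG against 20.4 and 24.5 in hCG, a difference of -59.6 points. In the PR experiment its ranks were 57.0 and 16.2 in WT and 26.2 and 61.6 in KO, so that replicates of 1 genotype differed more than the genotypes did. Downstream, chr8:56335381-56335908 was PMSG-only, with ranks of 60.4 and 54.8. In the PR lists both WT libraries held it (rank 47.8 in replicate 1, outside the best 55654 in replicate 2) and neither KO library did. The single hCG-only region, chr8:56266013-56266317, had folds of 4.17 and 4.18 and was outside the best 55654 intervals. By mean rank over the libraries that held it, the highest region of the gene was chr8:56303873-56304897 in its body, at 90.3 and 83.5 in hCG, 70.3 and 72.0 in PMSG, 46.2 and 83.8 in WT, and 79.8 and 88.7 in KO.

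The 2 receptors for prostaglandin E2 had PMSG-only regions and, in the deposited lists, no hCG-only region (in equal-length lists Ptger4 had 1, described last, and its PMSG-only region was lost). For Ptger2, chr14:44981630-44981905 lay 6.21 kb upstream of the start and ranked 53.2 and 60.2 in PMSG. Neither hCG list and neither KO list held it. Both WT lists did, at rank 23.6 in replicate 1 and outside the best 55654 in replicate 2, so the interval was present in some libraries from hCG-treated mice. The others, chr14:45053320-45053656 (ranks 36.5 and 12.6 in PMSG) and chr14:45049750-45050384, lay downstream of the gene. The former was in no PR list, and the latter in WT replicate 2 and KO replicate 1. For Ptger4, chr15:5293084-5293538, 48.9 kb upstream, was in both PMSG lists with folds of 5.42 and 6.66, and in both WT lists and KO replicate 1. Inside that gene, chr15:5241831-5242690 was wider in hCG (534 and 723 bp) than in PMSG (246 and 221 bp), a ratio of 2.69, and its PMSG intervals fell outside the best 55654.

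At Ptgfr, the prostaglandin F2 alpha receptor gene, 2 regions held by all 8 libraries ranked higher in hCG. The region chr3:151815753-151816778 in the gene body ranked 63.9 and 68.2 in hCG against 23.2 and 48.3 in PMSG, a difference of 30.3 points, and was 2.72 times wider in hCG. Upstream, chr3:151845837-151847082 ranked 67.2 and 61.5 in hCG against 39.4 and 39.5 in PMSG, with 69.3 to 79.0 over the PR libraries. The hCG-only region chr3:151829142-151829429 ranked 21.4 and 35.7 in hCG and was held by all 4 PR libraries, while the PMSG-only region chr3:151843059-151843331 ranked 18.7 and 11.3 and was in no PR library. The start of Ptgfr and this last region thus leaned to PMSG, and the other 3 regions to hCG.

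Among regions held by all 4 LH libraries in equal-length lists, ranks that did not overlap and differed by 20 points or more were higher in hCG at 6 of 38 (15.8%, against 12.7% over all such regions) and higher in PMSG at 5 of 38 (13.2%, against 16.3%). In this setting both shares were near those of all regions. The split between hCG and PMSG changed with the intervals ranked and with the limit in points, as given in the closing section. Intervals were at least 1.5 times wider in hCG, without overlap, at 12 of 45 regions (26.7%, against 20.9%), and wider in PMSG at 1 of 45 (2.22%, against 3.46%).

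The PR experiment compared WT with KO after hCG. Around the 9 genes 9 of 109 regions (8.26%) were held by both WT libraries and neither KO library, and none was KO-only, against 12.1% and 0.0802% of all 91017 regions. The WT lists were longer, and in equal-length lists no WT-only region remained among 83 (2.79% over all regions), while 2 of 83 were KO-only (2.41%, against 2.49%). Those 2 were a region upstream of Hpgd and chr9:103078129-103078719 in Slco2a1, and in the deposited lists both WT libraries held each of them. Without WT replicate 1 the WT-only count was 25 (24.5%, against 24.9% of all regions), without WT replicate 2 it was 16 (17.2%, against 21.6%), and without KO replicate 1 it was 17 (15.7%, against 19.9%), so that the share over all regions rose as well. The WT-only regions were chr1:150130177-150130341 at Ptgs2, chr1:149920032-149920474 and chr1:149965753-149966031 at Pla2g4a, chr2:30891112-30891440 at Ptges, chr9:102975148-102975318 at Slco2a1, chr8:56335381-56335908 at Hpgd, chr14:44981630-44981905 at Ptger2, and chr15:5235601-5235933 and chr15:5236571-5236777 at Ptger4. At Ptgs2 that interval had folds of 6.01 and 6.94 and spanned 157 and 163 bp. Ptgs1 and Ptgfr had none.

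Where both genotypes held a region, ranks rarely separated. Of 53 regions none was higher in WT (2.49% over all regions), and 1 (1.89%, against 3.08%) was higher in KO by the 20-point rule. The direction depended on the lists: with all deposited intervals ranked, 5 of 61 regions shifted (8.20%, against 13.9% over all regions in either direction), all of them higher in WT, whose lists are longer. The KO-higher region of the equal-length lists, chr3:151855613-151856894 upstream of Ptgfr, ranked 33.0 and 67.7 in WT against 78.0 and 68.3 in KO, so the closest libraries were less than a point apart. Without KO replicate 1 the count was 8 of 53 (15.1%, against 19.5% over all regions). It was 3 of 56 without WT replicate 1 (5.36%, against 10.04%) and without WT replicate 2 (5.36%, against 11.4%), and 3 of 55 without KO replicate 2 (5.45%, against 7.07%). By width, 3 of 61 regions were wider in WT (4.92%, against 7.39%) and 2 wider in KO (3.28%, against 1.31%). They included chr9:103013295-103013840 in Slco2a1 (ratio 1.93) and chr2:36254239-36254697 in Ptgs1 (1.79), both wider in WT, and chr1:149832244-149833381 in Pla2g4a (0.496), wider in KO.

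The regions that were hCG-only in the LH experiment were mostly present in both genotypes of the PR experiment, whose libraries are separate. Of the 24, WT replicates 1 and 2 held 19 (79.2%) and 23 (95.8%), near the 79.7% and 91.2% of all hCG-only regions, and KO replicates 1 and 2 held 19 (79.2%) and 15 (62.5%), against 62.9% and 44.3%. All 4 PR libraries held 15 (62.5%), against 40.7% of all 14212 hCG-only regions. None of the 24 was WT-only, against 16.6% of all hCG-only regions. Of the 13 PMSG-only regions the WT libraries held 9 (69.2%) and 8 (61.5%), against 76.2% and 45.6% of all PMSG-only regions, and the KO libraries 3 (23.1%) and 2 (15.4%), against 20.8% and 34.1%. Lower shares in KO than in WT were thus also found over all PMSG-only regions. Of these, 4 (30.8%, against 13.8% of all PMSG-only regions) were WT-only, namely the regions named above at Ptges, Ptger2, Hpgd and Pla2g4a. They made up 4 of the 9 WT-only regions (44.4%, against 10.5% of all WT-only regions). All 4 had left the WT-only class in equal-length lists.

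Counted over both experiments, 15 of the 116 regions (12.9%) were held by all 6 libraries from hCG-treated mice and neither PMSG library, against 5.88% of all regions. They lay at Slco2a1 (8), Ptgs1 and Pla2g4a (2 each), and Ptgs2, Ptges and Ptgfr (1 each). Hpgd, Ptger2 and Ptger4 had none. In equal-length lists the count was 11 of 96 (11.5%, against 6.05%), with 4 at Slco2a1, 2 at Pla2g4a, 1 each at Ptgs1, Ptgs2, Ptges and Ptgfr, and 1 at Ptger4. This count was chosen after the lists had been seen, and 8 of the 15 regions belong to 1 gene.

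By position, 8 of the 116 regions covered a start, 46 lay elsewhere in a gene body, 33 upstream and 29 downstream. All 8 at a start were held by all 8 libraries, against 11 in gene bodies, 12 upstream and 8 downstream. The same share for regions over any coding start is not given here, so this is not read as a trait of these genes. In all, 39 regions (33.6%) were in all 8 lists, against 37.9% of all regions, and 18 were in 1 library, 9 of them in WT replicate 2 and 4 in WT replicate 1. For 100 regions the nearest coding start was that of the prostaglandin gene, and 11 overlapped another coding gene.

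Among 23 other genes of the pathway, 286 regions were found. Of 245 in the LH experiment 33 (13.5%) were hCG-only and 17 (6.94%) PMSG-only, both below the shares of all regions, and of 268 in the PR experiment 34 (12.7%, against 12.1% of all regions) were WT-only and none KO-only. In equal-length lists 30 of 222 (13.5%, against 15.7% of all regions) were hCG-only and 18 (8.11%, against 13.5%) PMSG-only. In the same lists 7 of 214 (3.27%, against 2.79% of all regions) were WT-only and 3 (1.40%, against 2.49%) KO-only. In the deposited lists Ptgfrn, whose product binds the prostaglandin F2 alpha receptor, had 6 hCG-only and no PMSG-only regions. Tbxas1 (thromboxane synthase) had 4 and 0, Prxl2b (a prostamide and prostaglandin F synthase) 3 and 0, Pla2g5 (a secreted phospholipase) 3 and 1, and Akr1c18 (20 alpha-hydroxysteroid dehydrogenase) 4 and 5, which turned to 4 and 2 in equal-length lists. Hpgds (prostaglandin D synthase) had 1 and 3, and Abcc4, an exporter of prostaglandins, 0 and 2. Over the 8 lists these genes had 18 (Ptgfrn), 30 (Tbxas1), 14 (Prxl2b), 22 (Pla2g5), 15 (Akr1c18), 6 (Hpgds) and 15 (Abcc4) regions. Among all regions of the LH experiment 17.6% were hCG-only and 10.3% PMSG-only. In equal-length lists Ptgfrn had 6 and 1, Tbxas1 3 and 0, Prxl2b 2 and 0, Pla2g5 2 and 1, Hpgds 0 and 2, and Abcc4 0 and 2. Pla2g5 and Tbxas1 had 8 and 6 WT-only regions in the deposited lists, and 2 and 1 in equal-length lists.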

How the data were processed

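ATAC-seq libraries were read as 150 bp pairs, per the labels' protocols. The submitters' processing notes name mm10, Bowtie2 and MACS2, without versions or roles. Whether reads were shifted for the transposase is not given in the sources used here. The authors deposited 1 peak list per library: column 7 is a fold ratio over background, columns 8 and 9 are −log10 p and −log10 q-values, and column 5 is a score, 10 times column 9, that was not used. In the deposited lists every −log10 q-value is 10 or more. As the lists hold no reads, depth is unknown and no interval or count test was possible.

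Python 3.11.15, pandas 2.3.3 and numpy 2.4.6 were used. Summits of 1 interval were counted once, and intervals on chromosomes 1 to 19 and X that share 1 bp or more were merged over the 8 lists. A region was group-only where both libraries of a group and neither of the other held it. Equal-length lists kept the best 55654 intervals by column 9, and ranks are of column 7 within them. Genes, starts and promoters are from RefSeq tables on GRCm38.p6, which match the deposited build, and all 9 genes and the 23 others were matched. Distances run from a gene's start to a region's nearer edge. The counting was tested on simulated data.

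Named regions were those at each start, every group-only region, the highest-ranked region of each gene, up to 5 rank-shifted regions per experiment and up to 3 that differed in width by 1.5 times. A few others were named after their values were seen. The members and lists were chosen with earlier results of these data known. Alternatives were list length, column 9 of 20 or more, coverage of 50% of the region, merging by experiment, flanks of 10 and 100 kb, 10 percentile points, ranking by column 9, and leaving out each library.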

Additional observations from a re-analysis of the deposited data

How the results depend on the processing

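Shares in brackets are of the regions considered around the 9 genes, each against the share over all regions in the same setting. The 24 hCG-only regions became 10 in the best 20000 intervals of each list (29.4% against 15.1%) and 15 with 10 kb flanks (25.0% against 17.6%), and ranged over 25 to 27 when 1 library was left out (27.2% to 29.0% against 19.8% to 22.2%). The 13 PMSG-only regions became 2 in the best 20000 (5.88% against 13.9%, so below all regions) and 8 with 10 kb flanks (13.3% against 10.3%), and ranged over 13 to 16 (13.98% to 17.2% against 11.6% to 13.8%). With column 9 of 20 or more and with coverage of 50% of the region the PMSG-only share was near that of all regions (10.8% against 10.3%, and 11.1% against 11.0%). Of the same 24 and 13 regions, 18 (75.0%) and 11 (84.6%) kept their call in equal-length lists, against 77.6% and 88.3% of all such regions, and 4 (16.7%) and 0 in the best 20000, against 4.74% and 4.26%. Leans of single genes also depended on the setting. Beside the changes in equal-length lists given above, Ptger2 had 1 hCG-only and 1 PMSG-only region with column 9 of 20 or more and none in the best 20000, Ptgs1 had 1 of each in the best 20000, and Hpgd had 1 and 2 with column 9 of 20 or more.

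The 9 WT-only regions became 0 in equal-length lists (against 2.79%), 0 in the best 20000 (against 1.69%) and 14 with 100 kb flanks (9.15% against 12.1%), and ranged from 11 to 25 when 1 library was left out (10.2% to 24.5% against 16.0% to 24.9%). The 0 KO-only regions became 2 in equal-length lists (2.41% against 2.49%) and ranged from 0 to 1 when 1 library was left out. The 11 rank-shifted regions of the LH experiment (28.9% of 38 against 29.0%) became 24 at 10 percentile points (63.2% against 52.2%, 10 higher in hCG and 14 in PMSG, where the reported split was 6 and 5), 4 with 10 kb flanks (18.2% of 22 against 29.0%) and 17 with 100 kb flanks (29.8% of 57 against 29.0%), and ranged from 10 to 16 when 1 library was left out. With all intervals ranked 9 of 45 were higher in hCG and 3 in PMSG, and with column 9 ranked 6 and 3. The shares over all regions are not given for these splits, so they are not read as a lean of these genes. The 1 rank-shifted region of the PR experiment, which was higher in KO, became 5 with all intervals (8.20% against 13.9%, all higher in WT), 6 at 10 points (11.3% against 18.6%), 3 with column 9 (5.66% against 3.66%) and 0 with 10 kb flanks (against 5.57%), and ranged from 3 to 8 when 1 library was left out. The 15 regions of the 6 libraries from hCG-treated mice became 6 in the best 20000 (17.6% against 6.02%), and this count and its alternatives were chosen after seeing the data. Fewer intervals or smaller windows leave fewer regions to call, and for the other changes the cause was not tested. Of the counts per gene and group under these alternatives, 146 stayed within 1.5 times, 89 moved, and 161 were 0 in both settings and say nothing of stability. No paired analysis was possible because the counts come from no test and replicate numbers carry no shared animal or day in the labels. Since the lists begin at a q-value limit, a missing interval is one below that limit and does not show closed chromatin.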
